A study of Macaca fascicularis with 2 samples.

Results

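GDF9 and BMP15 are secreted ligands of the TGFβ family that oocytes make and that act on the granulosa cells around them. Their 2 rows were taken by symbol from a table of 18446 genes and 20967 cells, and every deposited cell was used, including the 4675 cells with more than 3000 detected genes. The cells came from digested whole ovaries of 1 fetal cynomolgus monkey (Macaca fascicularis) at embryonic day 84 (E84) and 1 at E116, untreated, with the ovary pair of each fetus pooled into 1 library, and were measured by 10x 3′ droplet RNA sequencing. The table ends each cell barcode in 1 (10621 cells) or 2 (10346 cells) and does not tie an ending to a stage. All cells were therefore 1 pooled sample, no test between groups was possible, and values are also given apart for the endings. The endings are presumably the 2 libraries, so they may differ by stage, fetus and handling together, and these cannot be told apart.

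GDF9 and BMP15 are made as precursors that proprotein convertases cut, and the mature dimers bind type II and type I serine-threonine kinase receptors that phosphorylate SMAD proteins. GDF9 is known for signalling through BMPR2 with TGFBR1, and BMP15 through BMPR2 with BMPR1B. In mammals both are classical oocyte products, needed in various species for follicles to grow beyond the primary stage.

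A level here is the sum of unique molecular identifiers (UMIs) of a gene over the cells of a group scaled to the group's total as counts per 1e+06 UMIs (CPM), with an exact 95% Poisson interval in parentheses. For the share of cells with a UMI the interval is the exact 95% binomial one. These intervals hold the error of counting alone and leave out any difference between cells or between fetuses. The table holds 148824177 UMIs, with a median of 3756 UMIs per cell. Groups were rebuilt by clustering without the members and their pathway genes, and named from marker genes as "-like" cells. GDF9 and BMP15 named no group. No doublets were removed: Scrublet called 0 cells in each barcode set, so it gave no usable call, and leaving out the 8% of cells with the highest scores was tried instead. There were 674 oocyte-like cells, 21 of which carry the barcode ending 1 and 653 the ending 2. There were also 252 mitotic-like, 1401 retinoic acid (RA)-responsive-like and 1332 meiotic-like germ cells, 2650 germ cells without a step name, 14166 named somatic cells and 492 unnamed cells with a median of 78.2% mitochondrial UMIs. A barcode sequence was found under both endings in 27 cases.

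Both members were found, at very different counts. GDF9 had 6352 UMIs in 2250 cells, and 78.7% of them lay in cells with more than 3000 genes, which hold 64.2% of the UMIs of all genes. BMP15 had 10 UMIs in 9 cells, and 9 of the 10 lay in such cells. Counts of different genes in a 3′ assay also depend on how each transcript is captured and annotated, so the levels of GDF9 and BMP15 were each read on their own scale. Neither 3′ end was examined here.

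GDF9 UMIs were concentrated in few cells. Of the 2250 cells with GDF9, 1713 had 1 UMI. At the other end, 129 cells with 10 or more GDF9 UMIs held 3433 UMIs, 54.0% of the total. Of these 129 cells, 125 were oocyte-like and 4 were germ cells without a step name. No somatic cell reached 10. The highest count was 90 UMIs in 1 oocyte-like cell. Oocyte-like cells held 4096 of the 6352 UMIs, 64.5% (63.3–65.7), beside 7.41% of the UMIs of all genes. That share was 31.4% when cells over 3000 genes were left out and 30.7% when cells over 10% mitochondrial UMIs were left out, and it was 3.67% under barcodes ending in 1. Named somatic cells held 1612 GDF9 UMIs, 25.4%.

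The oocyte-like level of GDF9 was 371 CPM (360–383), with 4073 UMIs under barcodes ending in 2 and 23 under barcodes ending in 1. The 653 cells ending in 2 stood at 377 CPM (365–389) and the 21 cells ending in 1 at 104.6 CPM (66.3–157). These intervals did not overlap. In the same 21 cells FIGLA, a transcription factor needed for primordial follicles and zona pellucida genes, stood at 755 CPM against 536 CPM in the cells ending in 2. ASTL, the egg protease ovastacin, stood at 45.5 against 653 CPM, and ZAR1, a maternal-effect gene, at 45.5 against 566 CPM. The low GDF9 level of these 21 cells was accompanied by low ASTL and ZAR1 and by a high FIGLA. The 21 cells held 10 UMIs each of ASTL and ZAR1 and 166 of FIGLA.

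The oocyte-like cells formed a shallow group of 357 cells with a median of 1112 UMIs and a deep group of 317 cells with a median of 18174 UMIs. GDF9 was at 399 CPM (356–447) in the shallow group and 369 CPM (358–381) in the deep group, a ratio of 1.08 (0.96–1.21) that includes 1. Single cells of the shallow group held 62, 27 and 16 of its 303 GDF9 UMIs. Its level thus rests in part on few cells, which the interval does not take in, and likeness of the groups is not read from this ratio. The share of cells with a GDF9 UMI, however, was 35.9% in the shallow and 86.4% in the deep group. Thinned to 1000 UMIs per cell, the shares were 28.6% (22.4–35.4) of 196 and 26.8% (22.02–32.1) of 317 cells, with 161 shallower cells left out of the shallow group.

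Across bands of depth the GDF9 level of oocyte-like cells moved little while detection moved much. From under 1000 UMIs per cell through 1000 to 3000, 3000 to 10000 and 10000 to 20000 to 20000 or more, the level was 336, 410, 320, 377 and 374 CPM. The share of cells with a GDF9 UMI over the same bands was 20.5, 43.3, 69.6, 90% and 99.3%. An oocyte-like cell of low depth without a GDF9 UMI was therefore not shown to lack the transcript.

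Single cells of the deep group differed widely in GDF9, and also in depth, from 1051 to 119849 UMIs. Over the 317 cells of the deep group the median was 301 CPM, the middle 50% of cells lay between 144 and 482 CPM, the highest was 2149 CPM, and 43 cells had no GDF9 UMI. That highest level was 9 GDF9 UMIs in a cell of 4188 UMIs. What part of this spread is error of counting was not tested. Over the 221 oocyte-like cells over 10000 UMIs the median was 298 CPM, with the middle 50% between 172 and 447 CPM. Among these 221 cells, 213 had GDF9 and 8 had none. All but 1 of these 8 cells without GDF9 had a FIGLA UMI. In the plot of single oocyte-like cells the GDF9 count rises with the depth of the cell, with a wide spread among cells of like depth.

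**Figure D1:**
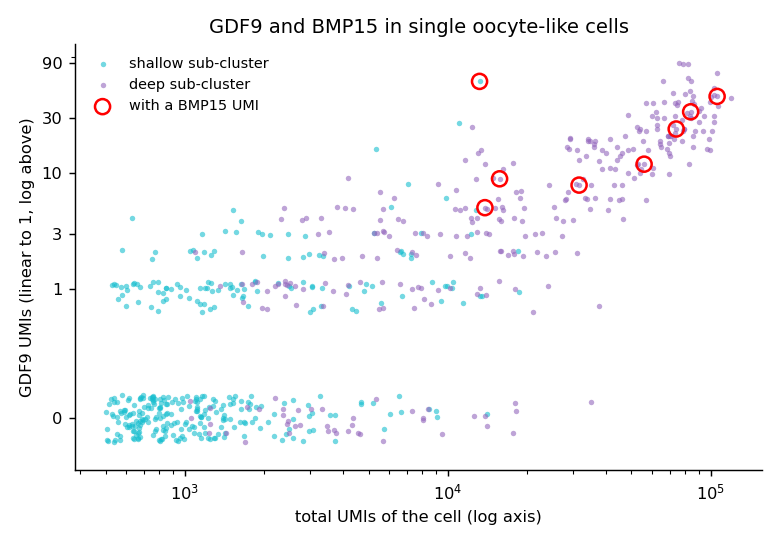
GDF9 UMIs (vertical axis, linear up to 1 and logarithmic above, points spread slightly to show overlap) against total UMIs of the cell (logarithmic axis) for the 674 oocyte-like cells, coloured by shallow and deep sub-cluster. Red rings mark the 8 cells with a BMP15 UMI, all of them over 10000 total UMIs and with 5 to 62 GDF9 UMIs.

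BMP15 was detected only where cells were deep, with 1 exception. Of its 9 cells, 8 had 1 UMI and 1 had 2 UMIs, and all 9 had barcodes ending in 2. Of these cells, 7 lay in the deep oocyte-like group and 1 in the shallow group, which gives 9 UMIs or 0.816 CPM (0.373–1.55) in oocyte-like cells. The ninth cell was a germ cell without a step name, with 2711 UMIs in all, 49.1% of them mitochondrial.

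The 8 oocyte-like cells with BMP15 had 13222 to 105930 UMIs and 3041 to 8572 genes. Their GDF9 counts were 46, 34, 24, 12, 8, 9, 5 and 62 UMIs from the deepest cell to the shallowest. As GDF9 levels these counts spanned 215 to 4689 CPM, with a median of 383 CPM. The highest belongs to the cell in the shallow group, which has 45.5% mitochondrial UMIs and 1 FIGLA UMI. The other 7 cells had 6 to 47 FIGLA UMIs.

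GDF9 and BMP15 were found together in every cell with BMP15. All 9 of 9 cells had a GDF9 UMI, 100% (66.4–100), and 9 of 2250 cells with GDF9 had BMP15, 0.40% (0.18–0.76). GDF9 was itself in 213 of the 221 oocyte-like cells over 10000 UMIs, 96.4%, to which all 8 oocyte-like cells with BMP15 belong. In that depth class BMP15 was in 8 of 221 cells, 3.62% (1.58–7.01), at 0.903 CPM (0.413–1.71). The 453 oocyte-like cells up to 10000 UMIs had none, but they hold 1060671 UMIs together, in which 3 counts would be 2.83 CPM. A difference of BMP15 between deep and shallow oocyte-like cells was not detectable at this depth.

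Outside oocyte-like cells BMP15 was almost always at 0, and the depth sets what that allows. In the 14166 named somatic cells there were 0 UMIs. There 3 counts would be a share of 0.0212% of cells with a UMI and a level of 0.0310 CPM, and the exact upper limit of the level was 0.0381 CPM. Against the 3-count level of the whole somatic group, the oocyte-like level was 26.3-fold higher, a log2 ratio of 4.72 (3.59–5.64). Within barcodes ending in 2 it was 17.4-fold higher, a log2 ratio of 4.12 (2.99–5.05). These intervals hold the counting error of the 9 oocyte-like UMIs alone. RA-responsive-like and meiotic-like cells also had 0 UMIs, with 3 counts at 0.220 and 0.359 CPM, both below the oocyte-like level when the endings were pooled. In mitotic-like cells 3 counts are 0.882 CPM, so a level as in oocyte-like cells could not have been seen. Within barcodes ending in 2, the 3-count levels of RA-responsive-like and meiotic-like cells were 0.647 and 0.802 CPM. Oocyte-like cells of that set stood at 0.833 CPM (0.381–1.58), so neither group was separable from them. The 21 oocyte-like cells ending in 1 hold too few UMIs to show BMP15, since 3 counts there are 13.6 CPM.

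Along the germ cell steps GDF9 stood lowest in mitotic-like cells, at 3.82 CPM (2.03–6.54, 13 UMIs), and at 5.07 CPM (3.94–6.42, 69 UMIs) in RA-responsive-like cells. The ratio of these neighbours was 1.33 (0.73–2.62) and includes 1. Meiotic-like cells stood at 23.6 CPM (20.4–27.1, 197 UMIs), 4.65-fold (3.52–6.21) above RA-responsive-like cells. Within the endings this ratio was 5.19 (3.51–7.84) and 3.79 (2.54–5.80). Oocyte-like cells stood 15.8-fold (13.7–18.3) above meiotic-like cells, 5.03-fold (3.04–7.99) under barcodes ending in 1 and 14.0-fold (11.5–17.2) under barcodes ending in 2. The order from RA-responsive-like through meiotic-like to oocyte-like was thus the same in both barcode sets.

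**Figure D2:**
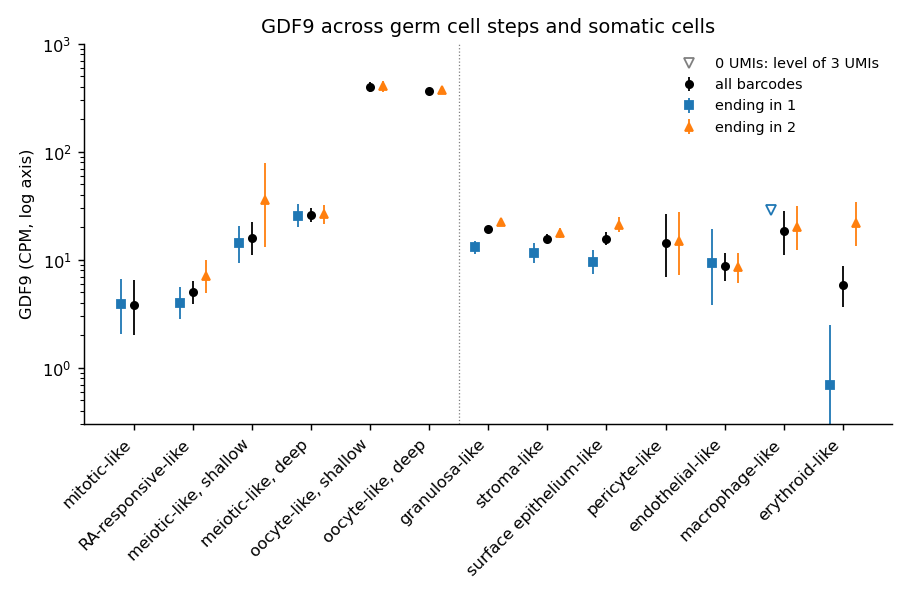
GDF9 in CPM (logarithmic axis) in the germ cell-like groups (left of the dotted line) and the somatic groups (right), for all barcodes and for each ending with at least 20 cells, with exact 95% Poisson intervals of counting error. Both oocyte-like groups, at 399 and 369 CPM, lie above every other group, and mitotic-like and RA-responsive-like cells, at 3.82 and 5.07 CPM, lie below the pooled level of granulosa-like and stroma-like cells.

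The meiotic-like cells were also of unlike depth. The 883 cells of the shallow group had a median of 1738 UMIs and GDF9 at 15.9 CPM (11.03–22.3), and the 449 cells of the deep group a median of 12916 UMIs and GDF9 at 26.2 CPM (22.3–30.6). Under barcodes ending in 1 the deep group stood 1.81-fold (1.15–2.92) above the shallow group, while the ratio of 0.74 (0.33–2.06) under barcodes ending in 2 rests on 6 UMIs of the shallow group. The deep group was at nearly the same GDF9 level in both barcode sets, 25.7 CPM (20.0–32.6) and 26.6 CPM (21.5–32.5).

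Set beside the somatic cells, the germ cell steps lay on both sides. Named somatic cells stood at 16.7 CPM (15.9–17.5). Mitotic-like and RA-responsive-like cells were below that level, at ratios of 0.23 (0.12–0.39) and 0.30 (0.24–0.39). Deep meiotic-like cells were 1.57-fold (1.33–1.85) above it, 2.37-fold (1.80–3.07) and 1.34-fold (1.08–1.65) within the endings. Against granulosa-like cells under barcodes ending in 2 alone, the deep meiotic-like ratio was 1.19 (0.95–1.48), which includes 1. Oocyte-like cells stood 22.3-fold (21.0–23.6) above somatic cells, 9.63-fold (6.03–14.7) under barcodes ending in 1 and 19.0-fold (17.9–20.3) under barcodes ending in 2. Whether the GDF9 UMIs of meiotic-like cells came from those cells was not tested.

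The cells of the germ cell-like clusters were also ordered by the summed UMIs of 23 oocyte genes in each cell, without a step name. The 23 are of 26 listed, GDF9 and BMP15 not among them. Some of them, such as FIGLA, ASTL and ZAR1, also named the oocyte-like cells, so this order is not independent of that name. GDF9 was at 19.2 CPM in the 2409 germ cells without such a UMI, which have a median of 1061 UMIs. Per 10000 UMIs of the cell, it was at 13.9 CPM with up to 2 oocyte-gene UMIs, 10.5 CPM with 2 to 5 and 11.3 CPM with 5 to 10. It then stood at 98.5 CPM (87.8–110) with 10 to 20, 273 CPM (258–288) with 20 to 50, 454 CPM (436–472) with 50 to 100 and 704 CPM (618–798) above 100. The mix of endings changed along these classes, since 302 of the 2409 cells of the lowest class carry the ending 2, but 395 of 441 with 20 to 50, 219 of 220 with 50 to 100 and all 31 above 100. Under the ending 2 alone the level was 44.7 CPM (29.2–65.4) without such a UMI and 23.6, 17.6 and 16.2 CPM in the classes up to 10. It stood at 123 CPM (109–139) with 10 to 20, 277 CPM with 20 to 50 and 454 CPM with 50 to 100. Under the ending 1 it was 15.9, 10.1, 6.99 and 5.85 CPM in the classes up to 10, 30.9 CPM (20.2–45.3) with 10 to 20 and 53.2 CPM (17.3–124, 5 UMIs) with 20 to 50, and only 1 cell lay above that. The rise from the class of 5 to 10 to that of 10 to 20 was thus found under both endings, and the classes above 50 rest on the ending 2. These 2 classes also differ in depth, with medians of 4010 and 1050 UMIs per cell. The medians were 3122 and 934 under the ending 1 and 6939 and 1421 under the ending 2. Depth and the share of oocyte genes were not told apart, so no onset of GDF9 is read from this rise.

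The level of GDF9 in deep meiotic-like cells was set beside that of other germ cell genes, with nothing subtracted for the level found in somatic cells. The deep meiotic-like level of GDF9 was 7.06% (6.0–8.25) of its oocyte-like level. FIGLA was at 28.5% (26.6–30.5), SOHLH1 at 30.3% (24.8–36.8) and LHX8 at 29.0% (24.9–33.7), all transcription factors of early oocytes. NOBOX, a homeobox factor known to act on the GDF9 promoter, was at 7.66% (4.56–12.1). ZAR1 was at 4.40% (3.72–5.16), and the zona pellucida genes ZP2 and ZP4 were at 3.38 and 2.93%. ASTL was at 0.55% (0.35–0.84) and PADI6, a component of oocyte cytoplasmic lattices, at 0.66%. The order of these percentages differed between the endings. Under the ending 2 GDF9 was at 7.05% (5.69–8.64), FIGLA at 37.1%, SOHLH1 at 47.6% and LHX8 at 39.9%. Under the ending 1, with its 21 oocyte-like cells, GDF9 was at 24.6% (15.1–41.3), above FIGLA at 12.3% and SOHLH1 at 4.70%, and overlapped LHX8 at 18.9% (10.6–35.02) and ZAR1 at 29.1% (14.1–65.9). In somatic cells GDF9 stood at 4.48% (4.23–4.75) of its oocyte-like level, beside 1.35% for FIGLA, 1.75% for SOHLH1, 1.05% for LHX8, 0.88% for NOBOX and 1.33% for ZAR1. ASTL, PADI6 and ZP4 stood at 1.28, 1.30 and 3.53% in somatic cells, no lower than in deep meiotic-like cells. What part of each percentage this somatic level makes up was not tested, so no order of GDF9 among these genes is read from them. FIGLA, NOBOX, SOHLH1, LHX8, ZAR1, ASTL, PADI6, ZP2 and ZP4 helped to name the oocyte-like cells, so their oocyte-like levels are not results.

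NR6A1, a nuclear receptor known to repress Gdf9 and Bmp15 in mouse oocytes, ran the other way. It stood at 55.0 CPM in mitotic-like, 33.1 in RA-responsive-like, 12.9 in meiotic-like and 4.90 CPM in oocyte-like cells. Its values were lower at each of these steps within either ending as well, but each ending has a value resting on 3 counts. Under the ending 2 this is the mitotic-like value of 56.3 CPM, from 3 cells. Under the ending 1 it is the oocyte-like value of 13.6 CPM, from 21 cells, too few counts to separate it from 17.1 CPM in meiotic-like cells. TAF4B, a subunit of the general transcription machinery found in germ cells, stood at 17.6 CPM in oocyte-like cells and at 39.7 CPM in meiotic-like cells when pooled, but this direction differed between the endings. Oocyte-like and meiotic-like cells had 81.9 and 46.6 CPM under the ending 1, and 16.3 and 31.3 CPM under the ending 2. In the plot across germ cell groups the shallow and deep groups differ in depth and are not steps in time. GDF9 was at 399 CPM in the shallow and 369 CPM in the deep oocyte-like group, the former resting in part on few cells. FIGLA, LHX8 and ZAR1 were lower in the shallow than in the deep one, at 241 against 563, 38.2 against 116 and 234 against 580 CPM. Other oocyte genes were higher in the shallow group, such as ASTL at 917 against 621, JAG1 at 545 against 428, ZP4 at 202 against 55.8 and ZP2 at 98.8 against 69.2 CPM.

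**Figure D3:**
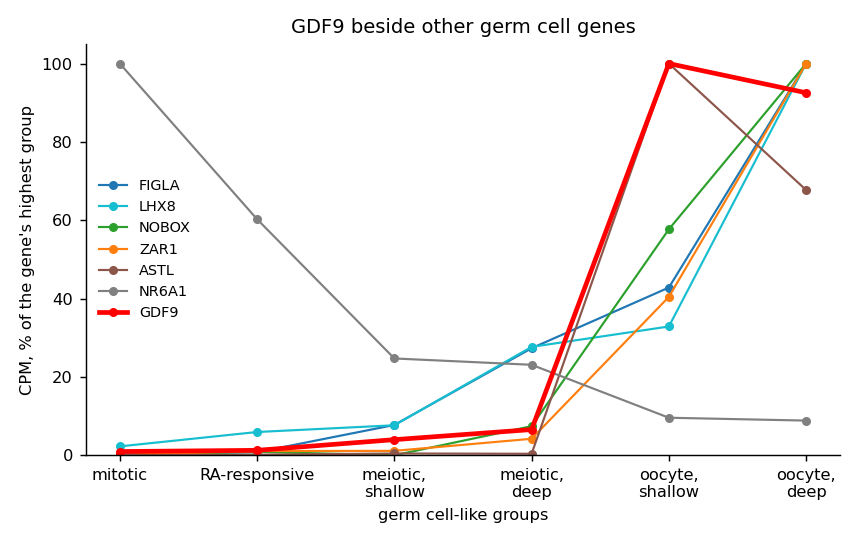
CPM of GDF9 and 6 other genes in 6 germ cell-like groups, each as a percent of the gene's own highest group (linear axis from 0). GDF9 goes from 26.2 CPM in deep meiotic-like cells to 399 and 369 CPM in the shallow and deep oocyte-like groups, while NR6A1 falls from 55.0 to 4.87 CPM.

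Genes were ranked by how like their pattern was to that of GDF9. GDF9 is highest in oocyte-like cells, so a high level there follows from this choice and is no result. Over 27 groups of at least 50 cells and 10449 genes, Pearson's r of log2 (CPM + 10) was highest for OXT, which encodes oxytocin (0.962), SLCO4A1, a transporter (0.961), CCDC146 (0.953), PPP1R3A, a regulatory subunit of protein phosphatase 1 (0.9496), and FANK1 (0.943). TGM7, the oocyte histone chaperone NPM2, the oocyte importin KPNA7, SLC15A1 and LMOD3 followed at 0.940 to 0.942. OXT stood at 235 CPM in oocyte-like and 4.25 CPM in somatic cells. The early factor FIGLA was less like GDF9, at 0.860, than ZAR1 at 0.930, ASTL at 0.928 or NOBOX at 0.912. The groups share 2 libraries and cells of unlike depth, so r is a description. For BMP15, with 10 UMIs, no gene is named.

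The chromosomal neighbour of GDF9 did not share its pattern. In the RefSeq gene table of another assembly (T2T-MFA8v1.1) GDF9 lies on chromosome 6 beside UQCRQ, a subunit of respiratory complex III, and BMP15 on chromosome X between the coding genes SHROOM4 and NUDT10. UQCRQ stood at 345 CPM in oocyte-like, 262 in meiotic-like, 283 in RA-responsive-like and 193 CPM in granulosa-like cells, with r = 0.073 against GDF9. SHROOM4 and NUDT10 stood at 0.27 and 0.36 CPM in oocyte-like cells.

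In somatic cells GDF9 was found at a low level in nearly every group. It stood at 19.2 CPM (17.98–20.5) in granulosa-like cells, 18.4 (11.2–28.4) in macrophage-like, 15.8 (14.2–17.4) in stroma-like, 15.8 (13.8–17.98) in ovarian surface epithelium-like, 14.4 (6.88–26.4) in pericyte-like, 8.69 (6.38–11.6) in endothelial-like and 5.81 CPM (3.64–8.79) in erythroid-like cells. Granulosa-like cells were 1.22-fold (1.08–1.38) above stroma-like cells pooled, with ratios of 1.12 (0.87–1.44) and 1.26 (1.1–1.44) within the endings. Neighbours in this order had overlapping intervals. The endothelial-like and erythroid-like intervals lay below that of surface epithelium-like cells.

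The 2 barcode sets differed in this somatic level. GDF9 stood at 10.9 CPM (9.78–12.03) in somatic cells ending in 1 and at 19.8 CPM (18.7–20.9) under the ending 2. Erythroid-like cells, which carry few other transcripts than globins, stood at 0.695 CPM (2 UMIs, 0.084–2.50) under barcodes ending in 1 and at 22.2 CPM (13.5–34.2) under barcodes ending in 2. In the second set erythroid-like and granulosa-like cells were thus alike, at a ratio of granulosa-like to erythroid-like cells of 1.01 (0.65–1.66), whereas the ratio in the first set was 18.8 (5.14–156).

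By share of cells, 11.4% of granulosa-like cells (median 4588.5 UMIs) and 2.95% of erythroid-like cells (median 4072 UMIs) had a GDF9 UMI, beside 59.6% of oocyte-like cells (median 2951 UMIs). Thinned to 1000 UMIs, the shares were 2.12% (1.77–2.52) of granulosa-like, 0.92% (0.34–1.99) of erythroid-like, 1.74% (1.08–2.65) of meiotic-like, 0.36% (0.12–0.84) of RA-responsive-like and 27.5% (23.7–31.6) of oocyte-like cells. These left out 784, 93, 125, 21 and 161 cells. The thinned share of meiotic-like cells was at the level of granulosa-like cells.

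GDF9 was not in a fixed proportion to other oocyte transcripts in somatic cells. In oocyte-like cells there were 21.4 (20.7–22.1) GDF9 UMIs per 100 UMIs of FIGLA, ASTL and ZAR1 together. In somatic cells there were 72.7 (68.2–77.6), with 1612 GDF9 UMIs beside 707 of FIGLA, 794 of ASTL and 716 of ZAR1. Under barcodes ending in 1 the proportion was 202 (169–243), with 370 GDF9 UMIs beside 183 of the 3 genes together, and 12.4 (7.65–19.1) in the 21 oocyte-like cells of that set.

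Under barcodes ending in 2 this proportion moved with the depth of the somatic cell. It was 22.8 (17.1–29.8) in somatic cells under 2000 UMIs, where it overlapped the oocyte-like 21.5 (20.7–22.2) of the same set. It was 38.6 (32.7–45.4) from 2000 to 5000 UMIs, 54.0 (46.4–62.7) from 5000 to 10000 and 99.1 (89.2–110) in cells of 10000 UMIs or more. Erythroid-like and macrophage-like cells of that set had 32.8 (18.7–55.1) and 37.0 (21.0–62.9). The source of the somatic GDF9 UMIs, as free RNA, doublets, reads of other transcripts or transcription in those cells, was not tested.

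The same held within granulosa-like cells. Under barcodes ending in 2, from under 2000 to 10000 UMIs or more, GDF9 went from 33.9 CPM (23.6–47.2) to 21.3 CPM (19.4–23.4). FIGLA went from 40.7 CPM (29.3–55.0) to 6.97 CPM (5.89–8.21). ASTL went from 49.4 to 8.95 CPM and ZAR1 from 46.5 to 6.20 CPM. Under barcodes ending in 1, GDF9 stood at 7.46 CPM (2.74–16.2) in the shallowest and 14.2 CPM (11.2–17.7) in the deepest band, and FIGLA at 2.49 and 3.09 CPM. RA-responsive-like cells ending in 1 with 10000 UMIs or more had GDF9 at 4.17 CPM (2.73–6.11), below the deepest granulosa-like cells of the same barcode set.

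**Figure D4:**
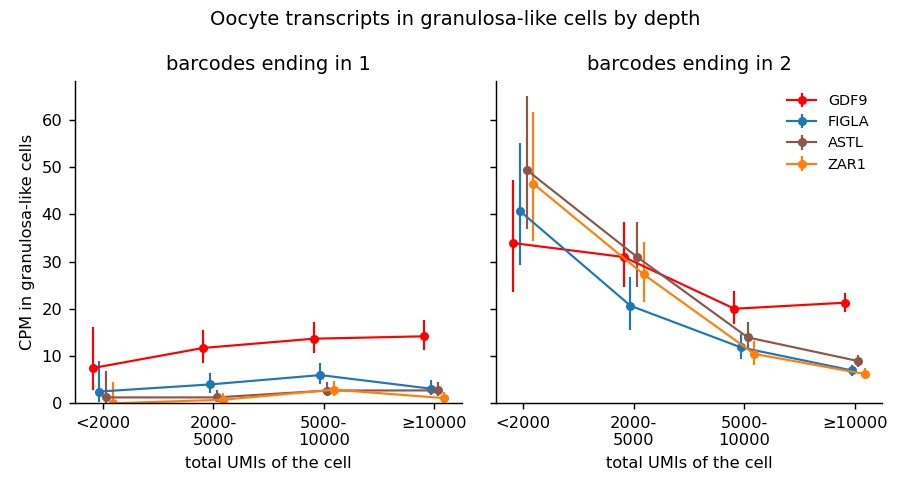
CPM of GDF9, FIGLA, ASTL and ZAR1 in granulosa-like cells by bands of total UMIs per cell, for barcodes ending in 1 (left) and in 2 (right), with exact 95% Poisson intervals of counting error and linear axes from 0. In the right panel FIGLA, ASTL and ZAR1 fall to 6.20 to 8.95 CPM in the deepest band while GDF9 stands at 21.3 CPM there.

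Among the 6 granulosa-like clusters GDF9 ranged from 9.47 CPM (4.09–18.7) to 29.0 CPM (23.2–35.7). The highest belonged to 1191 cells, 1184 of them under barcodes ending in 2, whose median mitochondrial share was 44.2%. The 492 unnamed cells, with the highest mitochondrial share, stood at 40.3 CPM (29.2–54.3). Granulosa-like cells under 10% mitochondrial UMIs had 14.2 CPM (11.98–16.8). The median mitochondrial share of granulosa-like cells was 10.2% under the ending 1 and 16.8% under the ending 2. This limit can therefore also change the mix of endings, and the 2 were not told apart. A part of the mitochondrial-rich cells in the granulosa-like level was not tested.

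Pathway genes were compared between granulosa-like and oocyte-like cells as a fold with 10 CPM added, among genes reaching 20 CPM in either group, and a fold of 2 was counted. Of 7652 genes, 21.2% were higher and 19.7% lower in granulosa-like cells, with a median log2 fold of -0.0096. With 1 pooled sample these are counts of folds, not of tested genes, and the lists were not drawn at random.

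Of the 5 convertases, 3 reached the level and pointed in different directions. Each of them reached it in a single group, PCSK5 in granulosa-like and PCSK4 and FURIN in oocyte-like cells, so the filter set their direction. PCSK5 stood at 93.6 CPM in granulosa-like and 10.2 CPM (8.36–12.2) in oocyte-like cells. PCSK4, best known from germ cells, stood at 60.5 CPM (56.0–65.3) in oocyte-like and 4.57 CPM in granulosa-like cells. FURIN, the ubiquitous convertase, stood at 28.3 CPM (25.2–31.6) in oocyte-like and 13.1 CPM (12.04–14.1) in granulosa-like cells, a fold below 2. The median log2 fold of the list was -0.73.

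Of the 4 type II receptors, 2 reached the level and 1, BMPR2, was higher in granulosa-like cells. BMPR2 reached the level in granulosa-like but not in oocyte-like cells, so the filter set its direction. BMPR2, the type II receptor of both members, stood at 64.2 CPM (62.0–66.6) in granulosa-like and 8.98 CPM (7.30–10.9) in oocyte-like cells, with 56.4 CPM in stroma-like and 157 CPM in endothelial-like cells. In the germ line BMPR2 was highest in meiotic-like cells, at 44.8 CPM.

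Of the 8 type I receptors and co-receptors, 6 reached the level, with a list median of 0.58 on the log2 scale. Of these, 2 were higher in granulosa-like cells, ACVR1 and the co-receptor TGFBR3. Both reached the level in granulosa-like but not in oocyte-like cells, so the filter set their direction. BMPR1B, the type I receptor of BMP15, stood at 131 CPM (128–135) in granulosa-like and 96.6 CPM (90.9–103) in oocyte-like cells, with 10.9 CPM in stroma-like cells. In granulosa-like cells it was at 73.9 CPM under barcodes ending in 1 and 160 CPM under barcodes ending in 2. TGFBR1, the type I receptor of GDF9, stood at 50.4 CPM (48.4–52.5) in granulosa-like and 25.9 CPM (23.0–29.1) in oocyte-like cells, a fold below 2 with 10 CPM added, and at 53.2 and 49.0 CPM in granulosa-like cells of the barcode sets. TGFBR3 was highest in stroma-like cells, at 215 CPM.

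Of the 8 SMADs, 4 reached the level and 1, SMAD3, which carries the signal of TGFBR1, was higher in granulosa-like cells, at 83.3 against 11.4 CPM. SMAD3 reached the level in granulosa-like but not in oocyte-like cells, so the filter set its direction. SMAD5, of the BMP branch, was the highest of the list, at 110 CPM in granulosa-like and 69.5 CPM in oocyte-like cells. The list median was 0.31 on the log2 scale.

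Of the 5 antagonists with a row, 3 reached the level. FST and FSTL3 did so in granulosa-like cells but not in oocyte-like cells, so the filter set their direction, and BAMBI did so in both groups. The values were, in granulosa-like against oocyte-like cells, FST, the activin-binding follistatin, at 120 against 17.4 CPM, FSTL3 at 65.0 against 4.72 CPM and the decoy receptor BAMBI at 63.4 against 21.4 CPM. NOG had 0 UMIs in both groups.

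Of the 17 other ligands of the family with a row, 7 reached the level, BMP2, TGFB1, TGFB2, TGFB3, INHA, INHBA and INHBB. Each of the 7 did so in granulosa-like cells but not in oocyte-like cells, so the filter set their direction and the count is no result. The highest of them in granulosa-like cells was BMP2, at 85.0 CPM against 10.1 CPM in oocyte-like cells. INHBB, the activin and inhibin βB subunit, stood at 62.2 against 2.45 CPM. No ligand of this list, which does not hold the members, reached 20 CPM in oocyte-like cells, where BMP5 was highest at 13.6 CPM (11.5–16.0).

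**Figure D5:**
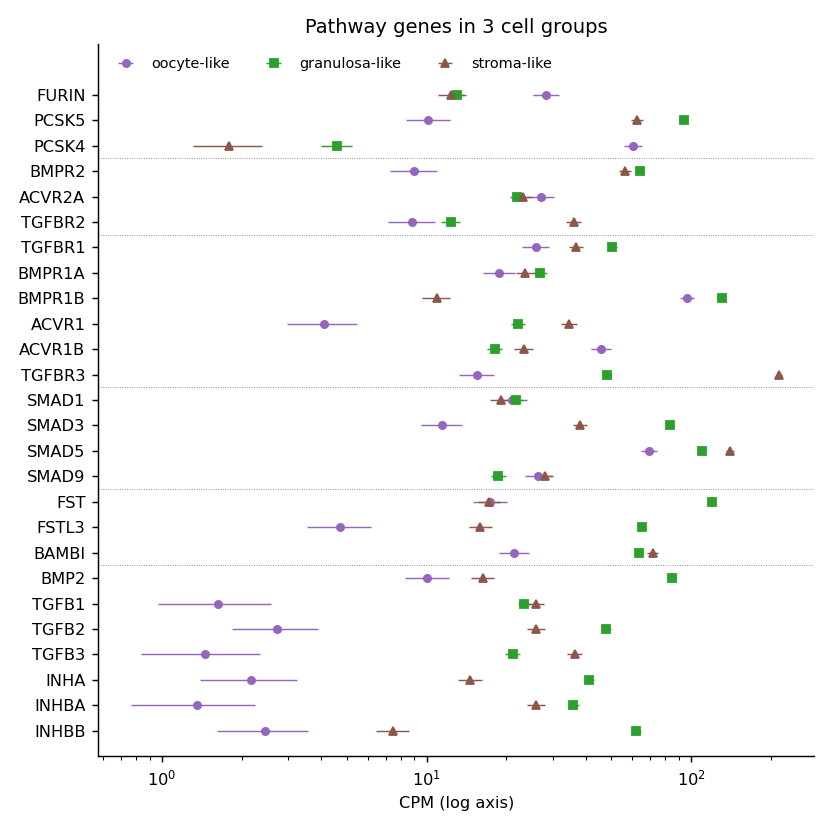
CPM (logarithmic axis) of 26 convertases, type II receptors, type I receptors, SMADs, antagonists and other ligands, separated by dotted lines from top to bottom, in oocyte-like, granulosa-like and stroma-like cells, with exact 95% Poisson intervals of counting error. Genes reaching 20 CPM in 1 of the 3 groups are drawn, so low genes are missing. BMPR1B lies near in granulosa-like and oocyte-like cells, at 131 and 96.6 CPM, and BMPR2 lies apart, at 64.2 and 8.98 CPM.

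Among 15 genes known as targets or partners of the members in follicles, 7 reached the level. Of these, 4 were higher and 1 lower in granulosa-like cells, with a list median of 2.06. KITLG and INHBB reached the level only in granulosa-like cells and TNFAIP6 only in oocyte-like cells, so the filter set their direction. The count is therefore no result about the list. KITLG, the KIT ligand that GDF9 and BMP15 act on in culture, was at 243 CPM in granulosa-like and 3.72 CPM in oocyte-like cells. It stood at 402 CPM under barcodes ending in 1 and 164 CPM under barcodes ending in 2 in granulosa-like cells. ID2, ID3 and INHBB were the others. The cumulus expansion genes of the list were low in granulosa-like cells. HAS2 stood at 0.36, PTX3 at 1.01, PTGS2 at 3.71 and TNFAIP6 at 0.69 CPM there. TNFAIP6 was at 26.2 CPM (23.3–29.4) in oocyte-like and 39.4 CPM in stroma-like cells.

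The study set GDF9 of oocytes beside hedgehog ligands of granulosa cells. DHH stood at 15.2 CPM (14.1–16.3) in granulosa-like cells, 12.6 and 16.4 CPM within the endings, and 1.18 CPM in oocyte-like cells. IHH stood at 4.05 CPM (3.50–4.67), 0.13 CPM ending in 1 and 6.01 CPM ending in 2. Neither reached 20 CPM. The hedgehog receptor PTCH1 and the hedgehog-responsive GLI1 were highest in stroma-like cells among the groups compared, at 90.6 and 30.3 CPM. Of the 10 genes of the list 2 reached the level, both only in granulosa-like cells, and SMO stood at 60.8 against 2.45 CPM there.

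Of 8 listed regulators of oocyte genes with a row, 6 reached the level with a 2-fold difference and all 6 were lower in granulosa-like cells, FIGLA, NOBOX, SOHLH1, LHX8, DAZL and YBX2, of which 4 named the oocyte-like cells. The list was fixed by its role in oocytes, so the direction was given by the choice.

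Within barcodes ending in 2 alone, 21.1% of 7584 genes were higher and 21.3% lower in granulosa-like cells. The convertases, receptors, SMADs, antagonists and hedgehog genes gave the same counts as over all cells. AMH and FSHR, which mark growing granulosa cells, then also reached the level, at 22.1 and 24.3 CPM in granulosa-like cells ending in 2 against 5.29 and 5.35 CPM in those ending in 1, and TGFB3 and BMP4 changed sides of it.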

How the data were processed

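The authors processed the reads with Cell Ranger 3.0.2 on the Macaca_fascicularis_5.0 genome and Seurat, and deposited raw UMI counts per gene and cell, in which each gene is found in at least 3 cells and each cell has at least 200 genes. Removal of doublets or free RNA is not given in the sources used here. The members and lists were chosen with earlier results of these data known.

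All 20967 cells were clustered with Seurat 5.3.0 (R 4.3.3), using 2000 variable genes, 18 principal components and resolution 0.6, with 77 member and pathway genes kept out. A cluster was named when 3 of a type's markers stood 1.5-fold above the remaining cells, after 10 CPM were added, and were found in 5% of its cells. A second clustering of the germ cell-like cells gave 12 sub-clusters, named by step. CPM and shares were computed from summed counts, with 1 pooled sample and no test. Thinning drew 1000 or 2000 UMIs per cell. Scripts were tested on simulated data. The genes named were the members, the 10 genes most like GDF9, and, from lists of receptors, ligands, targets and regulators, every gene counted and the highest ones with values. Some low genes are named as well, chosen after their values were seen. Python 3.11.15, numpy 2.4.6, scipy 1.17.1 and scanpy 1.11.5 were used. Gene sequences were not used here, and 1 listed gene is not reported here.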

Additional observations from a re-analysis of the deposited data

How the results depend on the processing

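No test was made, so an alternative is set against the 95% counting interval of the value as reported. The log2 ratio of GDF9 in oocyte-like over somatic cells, 4.48, was positive under all 12 alternatives, from 3.27 to 4.75. It was 4.75 with a 10% mitochondrial limit, 4.37 at clustering resolution 0.4, 4.29 as a mean of single-cell CPM and 4.64 without mitochondrial UMIs. It was 3.27 and 4.25 under barcodes ending in 1 and in 2. The share of GDF9 UMIs in oocyte-like cells, 64.5%, was 31.4% within 200 to 3000 genes, 30.7% with the mitochondrial limit, 66.1% without the 8% highest Scrublet scores, 61.6% at resolution 1.0, and 3.67% and 71.1% under barcodes ending in 1 and in 2. The first 2 limits left 424 and 369 of the 4096 GDF9 UMIs of oocyte-like cells. For the other values the cause was not tested.

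The share of BMP15 UMIs in oocyte-like cells, 90%, became 0% within 200 to 3000 genes, where 1 UMI was left, and 100% with the mitochondrial limit, where also 1 was left. The share of cells with BMP15 that have GDF9, 100%, was 0% in 1 random thinning to 2000 UMIs, where 1 cell with BMP15 was left, and thinning to 1000 UMIs left none in that draw. A second draw left 2 cells with BMP15 at 2000 UMIs and 1 at 1000, so these values turn on the draw. Barcodes ending in 1 held no cell with BMP15. A BMP15 ratio was given only with more than 3 UMIs. Against 3 somatic counts it was 4.72 (3.59–5.64) on the log2 scale and ranged from 4.12 to 4.88 over 8 alternatives. Leaving out cells whose barcode occurs under both endings, chosen after seeing the data, moved no value beyond its interval. Oocyte-like cells numbered 1362 at resolution 0.4, 331 at resolution 1.0 and 658 with 30 components, and 8 cells with BMP15 were among them each time.

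No paired analysis was possible because the cells are 1 pooled sample and no result comes from a test. Limits are that each stage is 1 fetus, that no replicate exists, that BMP15 rests on 10 UMIs, and that the GDF9 level under barcodes ending in 1 rests on 21 oocyte-like cells.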
